A study of Mus musculus with 4 samples.

Results

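The 7 MHC class II genes described here are H2-Aa, H2-Ab1, H2-Eb1, Cd74, Ciita, H2-DMa and H2-DMb1. They were taken by name from the 32285 genes counted in single cells of mouse bone marrow, and all 7 were in the count matrices. The choice was by name, with no threshold on a measured value. Each was followed in all kept cells, in dendritic-like cells, in B-lineage-like cells and in stem-like cells.

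MHC class II molecules display peptides from taken-up material on the cell surface to CD4 T cells. H2-Aa encodes the alpha chain and H2-Ab1 the beta chain of the I-A molecule, and H2-Eb1 encodes the beta chain of I-E. Cd74 encodes the invariant chain, which fills the groove of new class II molecules and guides them to endosomes. H2-DMa and H2-DMb1 encode chains of H2-DM, which exchanges the invariant chain remnant for peptide. Ciita encodes the coactivator that switches the class II genes on; it does not bind DNA itself but joins RFX, CREB and NF-Y proteins seated on the X and Y boxes of class II promoters. Dendritic cells, macrophages and mature B cells carry these molecules constitutively, and interferon gamma induces them in many other cells, blood stem cells among them.

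The cells were donor-derived (CD45.2+) Lin-Sca1+Kit+ (LSK) bone marrow cells, the sorted fraction in which blood stem cells and multipotent progenitors are found, taken 10 weeks after transplantation. RNA and 6 surface proteins were read from the same cells by droplet sequencing. The genotypes were control, Mll3 deleted, Mll4 deleted and Mll3/4 deleted, each read in 1 library. Mll3 and Mll4 are histone H3 lysine methyltransferases encoded by Kmt2c and Kmt2d, and the study asked how far each can stand in for the other in stem cell renewal and in the choice between myeloid and B-cell fates. The labels do not give the Cre driver, the deleted exons, the age of donors or hosts, or the number of mice behind a library.

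After filtering, the libraries labelled control, Mll3, Mll4 and Mll3/4 held 6851, 5803, 4609 and 4568 cells, with medians of 14121, 14962, 20809 and 8821 unique molecular identifiers (UMIs, counted transcripts) per cell. Values below are in that order. Kmt2c was counted at 68.3, 35.1, 61.0 and 42.0 CPM (counts per 1000000 UMIs of the library or class), whereas Kmt2d was at 24.4, 21.5, 22.3 and 25.3 CPM. Loss of Mll4 was thus not visible in the counts of its gene, and libraries are named by their labels for this reason. Pairs of libraries shared 9 to 22 deposited barcodes. The Mll4-labelled library stood apart: 4793 of its 7702 barcodes passed the filter, and 21.4% of its kept cells were monocyte or macrophage-like, a class that the Lin- sort should have removed. In the Mll3/4-labelled library, 99.4% of kept cells were B-lineage-like. With 1 library per genotype there was no replicate, no test was run, and every interval covers counting error only at 95%.

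The members other than Cd74 and Ciita lie together in the MHC region of chromosome 17 (GRCm38): H2-DMa at 34119541 to 34139101, H2-DMb1 at 34153072 to 34160230, H2-Ab1 at 34257689 to 34269419 and H2-Eb1 at 34305867 to 34316674 on the plus strand, and H2-Aa at 34282744 to 34287823 on the minus strand. Ciita is on chromosome 16 at 10480059 to 10528418. Promoters of H2-Aa and H2-Eb1 are shown because these genes were nearly lost together in the Mll3/4-labelled library, and that of H2-Ob because it has the same boxes and was higher there. H2-Ob encodes the beta chain of H2-DO, an inhibitor of H2-DM. The 150 bases before each start are RefSeq sequence (GRCm38.p6), 5′ to 3′ on the gene's strand, with the X-like box TNGNAAC and the Y box TGATTGG in capitals.
H2-Aa, chr17:34287824-34287973, minus strand: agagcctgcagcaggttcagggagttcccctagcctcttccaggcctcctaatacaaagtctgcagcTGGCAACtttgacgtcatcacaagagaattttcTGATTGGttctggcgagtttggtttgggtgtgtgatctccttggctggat
H2-Eb1, chr17:34305717-34305866, plus strand: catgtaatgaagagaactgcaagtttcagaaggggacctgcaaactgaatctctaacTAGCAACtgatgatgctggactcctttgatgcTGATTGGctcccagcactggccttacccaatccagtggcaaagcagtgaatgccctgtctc
H2-Ob, chr17:34238755-34238904, plus strand: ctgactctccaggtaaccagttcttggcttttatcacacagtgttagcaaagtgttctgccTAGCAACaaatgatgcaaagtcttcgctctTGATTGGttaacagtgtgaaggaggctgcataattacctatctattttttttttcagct

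In these windows the X-like box came first and the Y box followed after 26 bases in H2-Aa, 25 in H2-Eb1 and 23 in H2-Ob. H2-DMb1 had the same order with a gap of 26 bases. Neither RefSeq start of H2-DMa that was searched, after 34122831 or after 34125517, had either box. Both lie inside the annotated span of H2-DMa, 34119541 to 34139101, and other starts in that span were not searched. H2-DMa thus cannot be said to lack the boxes. Both strands were searched from 250 bases before to 50 bases after each start, and both boxes lay on the gene's own strand. Of 32544 promoters of that length, 35.2% held the X-like box, 7.8% the Y box and 0.203% (66 promoters) the X-like box followed by the Y box with a gap of 10 to 40 bases. The letters and the gap were set after these promoters had been read, so the match is a description of them. H2-Ab1, Cd74 and Ciita had no promoter entry.

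Across all kept cells, H2-Ab1 stood apart from the other members, each of which was lowest in the Mll3/4-labelled library. The share of all genes that were lowest there is not given here. H2-Aa was at 81.6 CPM (95% Poisson interval 79.9 to 83.3), 149.9, 696 and 4.75 (4.15 to 5.40) CPM. H2-Eb1 was at 60.1, 119, 623 and 4.89 CPM. H2-Ab1 was at 122, 193, 624 and 139.9 CPM. The order of libraries was therefore the same for H2-Aa and H2-Eb1, with the Mll4-labelled library highest and the Mll3/4-labelled library lowest, while H2-Ab1 was slightly above the control in the latter.

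Cd74 followed H2-Aa, at 165, 320.3, 1237 and 15.1 CPM. Ciita, a low-abundance transcript, was at 4.45, 7.13, 21.7 and 0.125 CPM, the last from 6 UMIs in 4568 cells. H2-DMb1 was at 37.8, 52.6, 61.0 and 6.18 CPM. H2-DMa was at 155, 175, 100.4 and 52.0 CPM and thus did not share the high level of the other members in the Mll4-labelled library. Near-identical stretches limit H2-DMb1, since 51 of 410 windows of 91 bases at the 3′ end of its transcript also occur in H2-DMb2, and the assignment of such reads is uncertain. CR974462.3 on the same strand overlaps H2-DMa, as do Brd2 and CR974462.4 on the opposite strand. Dexi overlaps Ciita, and a predicted gene at 0.152 CPM or less overlaps H2-Eb1. How far the counts of H2-DMa were affected was not tested. Tagging at the 3′ end counts 1 UMI per captured molecule, so counts were not divided by length, and levels of different genes are not ranked against each other.

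**Figure D1:**
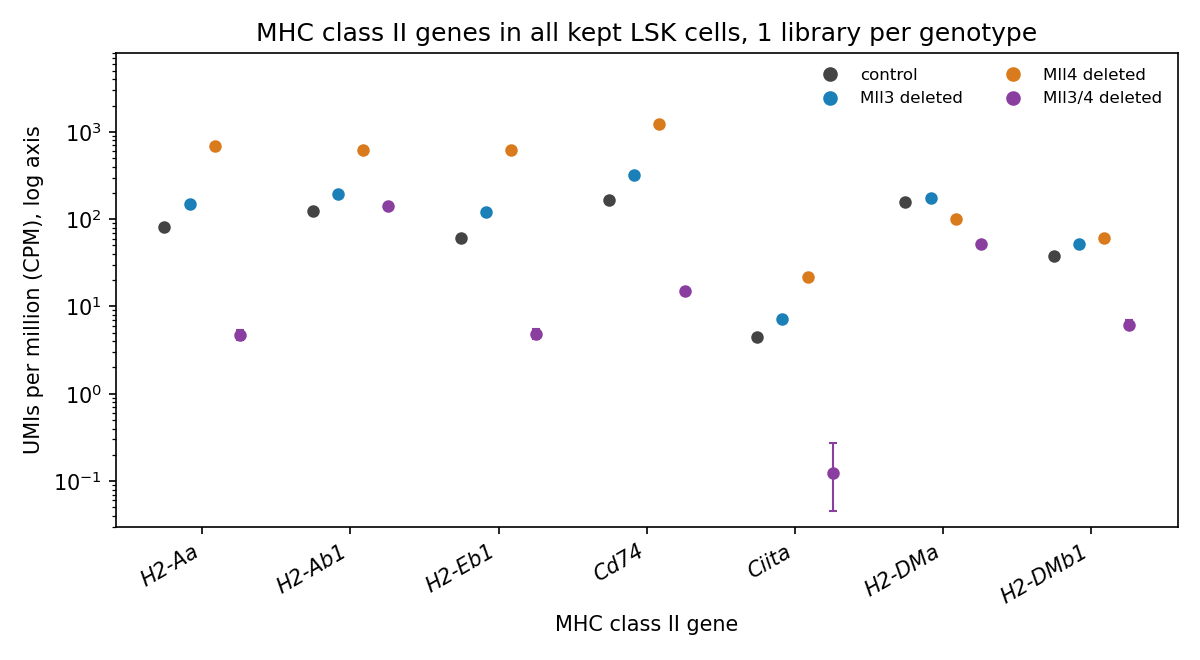
Level of each MHC class II gene over all kept cells, in CPM on a log axis, 1 point per library with its 95% Poisson interval. H2-Ab1 in the Mll3/4-labelled library, at 139.9, sits beside the control at 122, while H2-Aa, H2-Eb1, Cd74 and Ciita of that library sit far below.

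Relative to the control, the 3 libraries differed in opposite ways; the ratios share the control library and are given side by side. In the Mll3-labelled library the log2 ratio was 0.88 for H2-Aa, 0.66 for H2-Ab1, 0.99 for H2-Eb1, 0.96 for Cd74, 0.68 for Ciita, 0.17 for H2-DMa and 0.48 for H2-DMb1. None of the 7 passed 2-fold, where 1.33% of the 9881 genes averaging 5 CPM or more were 2-fold higher and 0.729% were 2-fold lower. With equal weight per cell H2-Eb1 (1.06) and Cd74 (1.03) passed it. In the Mll4-labelled library 5 of 7 were 2-fold higher, against 7.04% of 9949 genes, and none was 2-fold lower, against 4.47%. The log2 ratio there was 3.09 for H2-Aa (interval 3.06 to 3.12), 2.35 for H2-Ab1, 3.37 for H2-Eb1, 2.91 for Cd74, 2.28 for Ciita, 0.69 for H2-DMb1 and -0.63 for H2-DMa.

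Of the 6 members past the minimum in the Mll3/4-labelled library, 5 were 2-fold lower, against 11.9% of 9924 genes, and none was 2-fold higher, against 8.94%. The log2 ratio was -4.10 for H2-Aa (interval -4.30 to -3.91), -3.62 for H2-Eb1, -3.45 for Cd74, -2.61 for H2-DMb1, -1.58 for H2-DMa and 0.19 for H2-Ab1 (0.15 to 0.23), which turned to -0.09 with equal weight per cell and was 0.88 without the mature-like clusters described below. The classical sum of H2-Aa, H2-Ab1 and H2-Eb1 turned from -0.82 to 0.034 without those clusters. Ciita fell below the minimum, and its 6 UMIs gave a log2 ratio of -5.04 (-6.61 to -4.02). The median log2 ratio of the members was 0.68, 2.35 and -3.03 in the Mll3-, Mll4- and Mll3/4-labelled libraries, the last over the 6 members past the minimum, and that of all genes was 0.10, -0.10 and -0.10. The makeup of the libraries moved with these ratios. B-lineage markers summed to 13377 CPM in the Mll3/4-labelled library and to 68.5 in the control, and monocyte or macrophage markers to 2761 CPM in the Mll4-labelled library and to 351 in the control. Over all cells, more cells of a class and more RNA per cell cannot be told apart.

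To compare cells of unequal depth, each cell was thinned to 3000 UMIs. H2-Aa was then seen in 11.7%, 19.6%, 30.1% and 0.595% of cells, Cd74 in 12.8%, 22.6%, 38.9% and 0.86%, and H2-Ab1 in 19.6%, 27.5%, 32.9% and 29.3%. H2-Ab1 was thus as widespread in the Mll3/4-labelled library as in the Mll3-labelled library. A UMI of any of H2-Aa, H2-Ab1 and H2-Eb1, the classical chains, was seen in 30.4%, 41.2%, 50.7% and 29.9% of thinned cells and in 68.7%, 76.6%, 87.7% and 60.3% of cells at full depth. Granulocyte-monocyte-like cells were set beside these as a background. Their share was 13.2%, 9.80% and 16.7% after thinning in the first 3 libraries, at median depths of 25787.5, 26561.5 and 44792 UMIs before it. Whether these UMIs are background or the cells' own transcript was not tested. The Mll3/4-labelled library had 1 such cell.

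A small number of cells held much of the classical transcript. The top 1% of cells held 47.0%, 41.1%, 17.2% and 12.4% of the classical UMIs. Cells with at least 1000 CPM of the classical chains numbered 222, 505, 830 and 17, or 3.24%, 8.70%, 18% and 0.372% of cells. Dendritic-like cells were 0.321% of the control but held 24.8% of its classical UMIs, and monocyte or macrophage-like cells, 0.336% of cells, held 17.9%. Stem-like cells, 36.5% of cells, held 23.7%. In the Mll3-labelled library these shares of UMIs were 28.1%, 13.3% and 27.5%. In the Mll4-labelled library the 987 monocyte or macrophage-like cells alone held 80.8%, and in the Mll3/4-labelled library B-lineage-like cells held 98.9%.

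**Figure D2:**
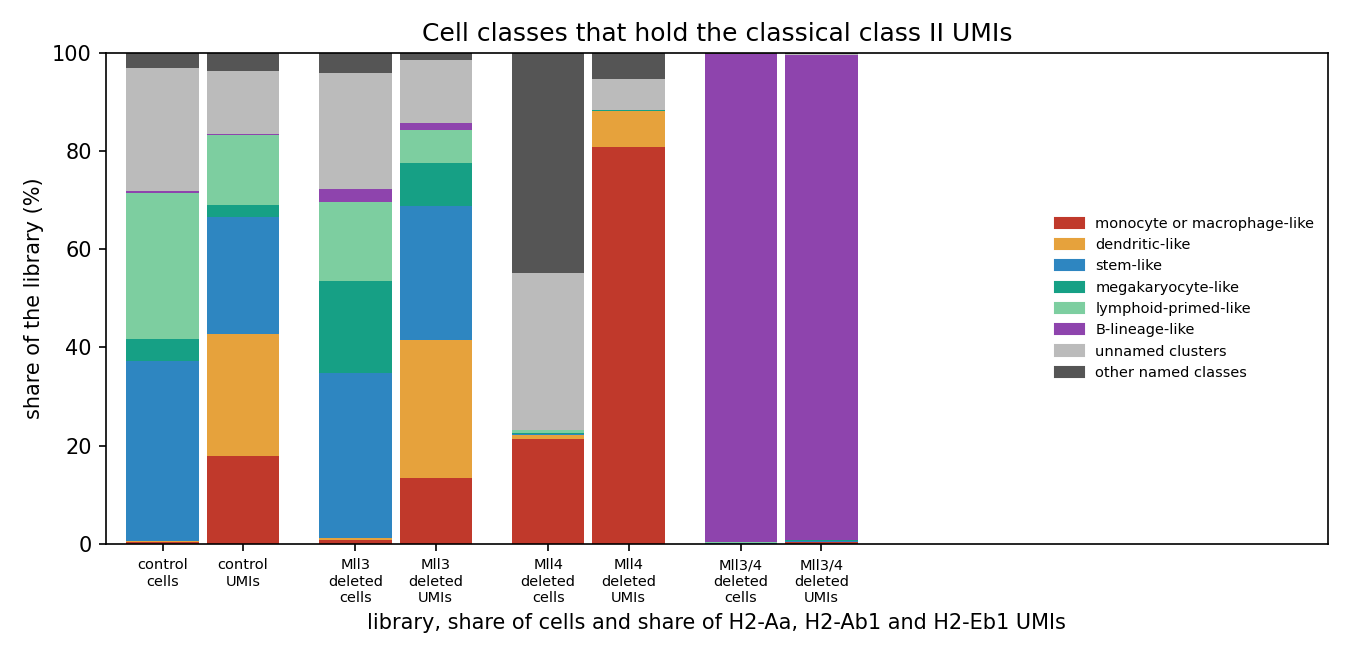
Share of each library's cells (left bar of a pair) and of its H2-Aa, H2-Ab1 and H2-Eb1 UMIs (right bar) in each cell class, in percent. Dendritic-like and monocyte or macrophage-like cells are a thin line among control cells and 24.8% and 17.9% of control UMIs; the latter class reaches 80.8% of UMIs in the Mll4-labelled library.

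Dendritic-like cells, which capture antigen and present it on class II, numbered 22, 32, 34 and 0. The absence in the last library allows a share of up to 0.0657% of its 4568 cells. The cluster was led by Naaa, Xcr1, Clec9a and Irf8, genes of type 1 conventional dendritic cells, while Siglech, a plasmacytoid marker, had no UMI in the first 2 libraries. Of 21 dendritic markers, 8 were at 0 in the control and in the Mll3-labelled library and 7 in the Mll4-labelled library. Every thinned dendritic-like cell had a UMI of H2-Aa, H2-Ab1, H2-Eb1 and Cd74 in all 3 libraries.

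In dendritic-like cells H2-Aa was at 6777, 9447 and 6221 CPM, H2-Ab1 at 8529, 12211 and 6795 CPM and H2-Eb1 at 4869, 7809 and 5217 CPM. Cd74 was at 16025, 22047 and 12369 CPM. Ciita was at 249, 297 and 345 CPM, H2-DMa at 841, 1391 and 608 CPM and H2-DMb1 at 812, 1069 and 470.4 CPM. The Mll3-labelled cells were highest for every member except Ciita. The members' median log2 ratio of Mll3-labelled to control cells was 0.48, against -0.019 over all genes. None of the 7 members differed 2-fold from the control in either library, where 8.51% (Mll3-labelled) and 10.9% (Mll4-labelled) of genes were 2-fold higher and 11.8% and 9.96% were 2-fold lower. Between the deleted libraries, 2 of 7, H2-DMa and H2-DMb1, were 2-fold lower in the Mll4-labelled cells than in the Mll3-labelled cells, against 10.9% of genes; 0 of 7 were 2-fold higher, against 12.3%. These cells were few, and H2-DMa differed by -1.20 and H2-DMb1 by -1.18 on the log2 scale. H2-DMb2, which shares 3′ sequence with H2-DMb1, went the other way, at 59.4, 98.9 and 147 CPM. Its log2 ratio of Mll4-labelled to Mll3-labelled cells was 0.56. How far reads were exchanged between H2-DMb1 and H2-DMb2 was not tested. The size of the class depended on the settings: at Leiden resolution 1 it held 32, 51 and 92 cells. The log2 ratio of the classical sum to the control was then 0.52 in place of 0.55 in the Mll3-labelled cells, and turned from -0.15 to 0.054 in the Mll4-labelled cells.

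Monocyte or macrophage-like cells reached similar levels, with 20543, 19111 and 15277 CPM of the classical chains from 23, 41 and 987 cells. They fell into clusters 15 and 13. The first, led by complement C1q genes and Ms4a7, held 508 Mll4-labelled cells at 21328 CPM, close to the 20594 CPM of its 20 control cells. The second, led by Fcgr4 and Ear2, held 479 Mll4-labelled cells at 1476 CPM. H2-Aa and H2-Eb1 were themselves among the 10 leading genes of cluster 15, although the class II genes were kept out of the genes used for clustering. The haemoglobin genes Hba-a1 and Hba-a2 were also among these 10. Mast or basophil markers (Cpa3, Tpsb2, Cma1, Mcpt4, Mcpt8, Ms4a2 and Fcer1a) and some dendritic markers were raised there beside 11 monocyte or macrophage markers. Whether its profiles mix RNA of several cell types was not tested. Without the mature-like clusters (dendritic-, monocyte or macrophage-, T or innate lymphoid-, plasma or mature B-, mast or basophil- and neutrophil precursor-like), an alternative chosen after seeing the data, the Mll4-labelled log2 ratio of the classical sum to the control was 0.38 in place of 2.88. That of H2-Ab1 was then -0.031, that of Ciita -0.18 and that of H2-DMa -1.09.

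Plasma or mature B-like cells showed another pattern. Cd74 was at 3136, 5557 and 2056 CPM in their 29, 30 and 124 cells, while the classical sum was at 216, 184 and 657 CPM. Ciita had no UMI in the first 2 libraries and 7 in the Mll4-labelled library.

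**Figure D3:**
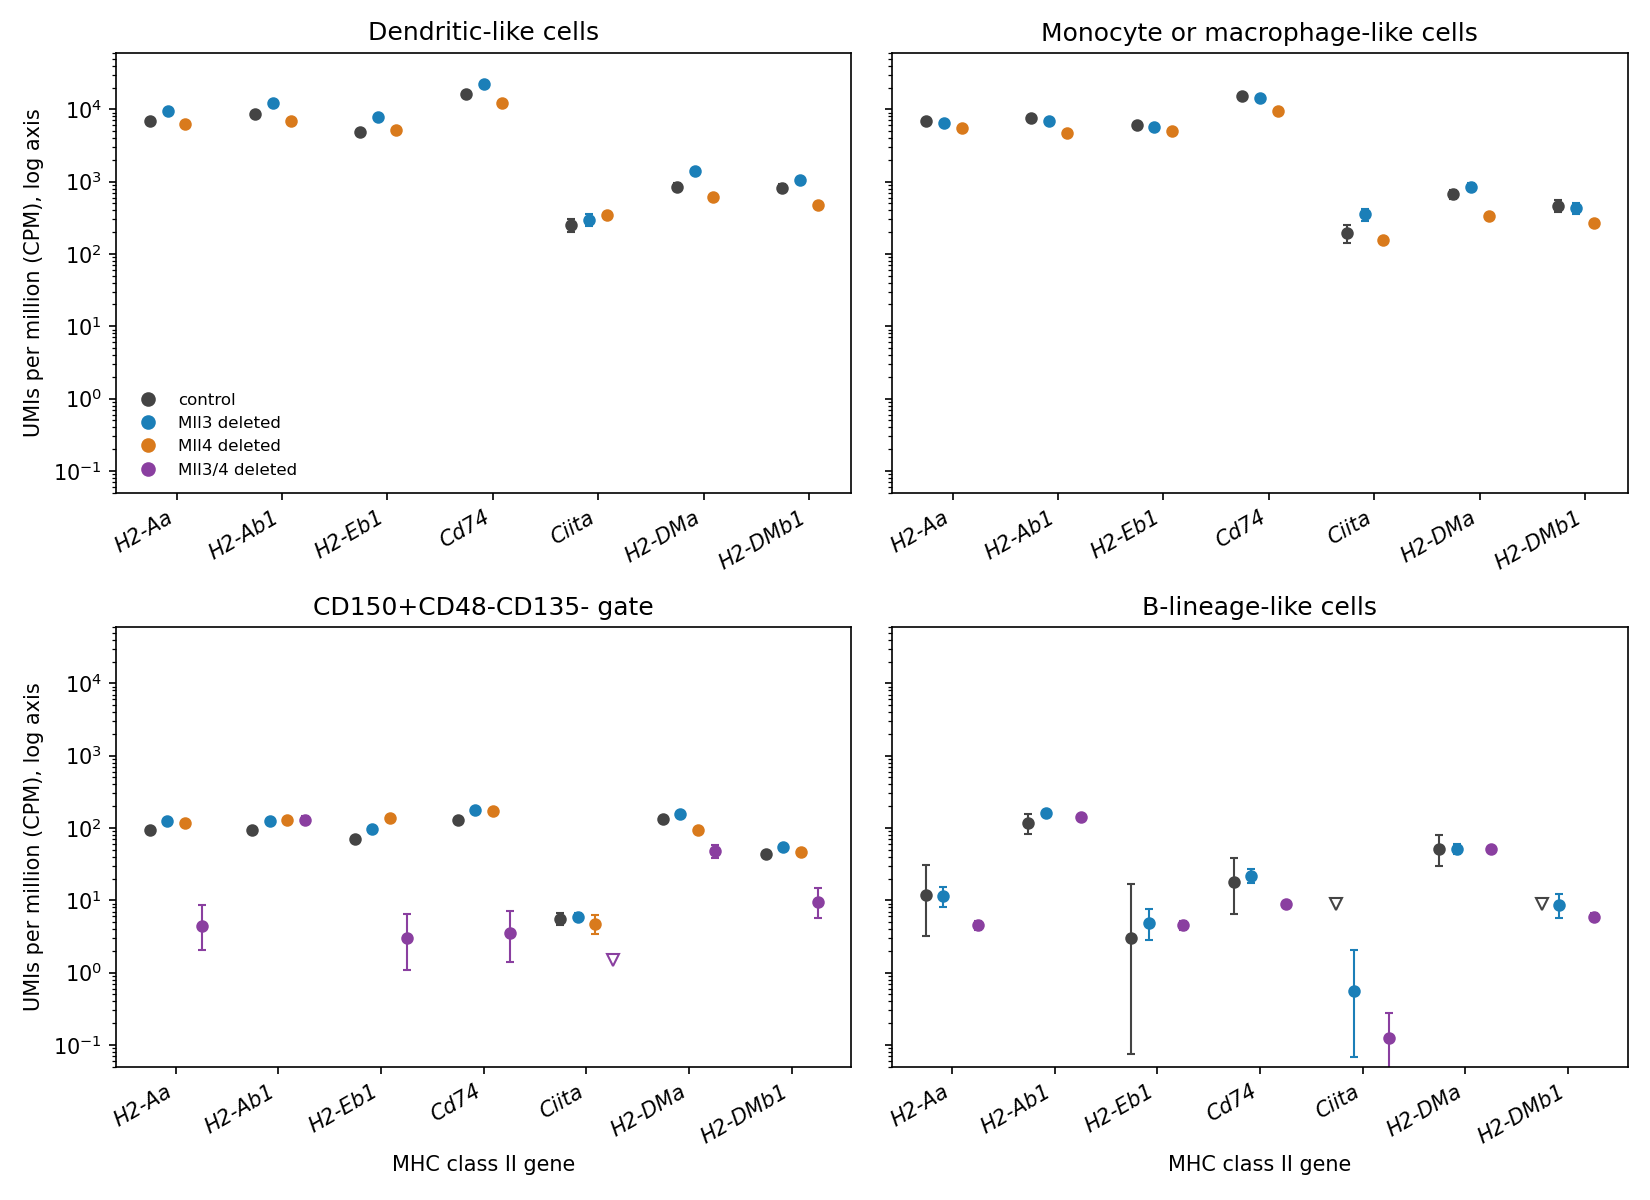
Level of each MHC class II gene in 3 cell classes and in the CD150+CD48-CD135- antibody gate, in CPM on a shared log axis, 1 point per library with its 95% Poisson interval; open triangles mark the level of 3 UMIs where none was counted. H2-Aa is at 6777 in dendritic-like and 92.6 in gated control cells, and at 4.50 in Mll3/4-labelled B-lineage-like cells, where H2-Ab1 is at 141.

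B-lineage-like cells numbered 15, 145, 8 and 4541. All 15 B-lineage markers were seen in the Mll3-labelled and Mll3/4-labelled cells, with Cd79a, Vpreb1, Igll1 and Ebf1 among them, and Ms4a1, which marks mature B cells, was near 0. Among Mll3/4-labelled cells H2-Ab1 was at 141 CPM (138 to 145), H2-Aa at 4.50 (3.92 to 5.15), H2-Eb1 at 4.52, Cd74 at 9.0, Ciita at 0.127, H2-DMa at 51.4 and H2-DMb1 at 5.96 CPM. In the Mll3-labelled cells H2-Ab1 was likewise far above the other 2 classical chains, with H2-Ab1 at 161 CPM (148 to 175), H2-Aa at 11.3 (8.08 to 15.4), H2-Eb1 at 4.81, Cd74 at 21.8, Ciita at 0.566 (2 UMIs), H2-DMa at 51.2 and H2-DMb1 at 8.48 CPM. The 15 control cells had 39 UMIs of H2-Ab1, 4 of H2-Aa and 1 of H2-Eb1. High H2-Ab1 beside little H2-Aa, H2-Eb1 or Cd74 was thus seen in B-lineage-like cells of each library that had over 10 of them.

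H2-Ab1 made up 88.6% (exact binomial interval 75.4 to 96.2), 90.9% (88.4 to 93.0) and 94.0% (93.4 to 94.5) of the classical UMIs of B-lineage-like cells in the control, Mll3-labelled and Mll3/4-labelled libraries. In dendritic-like cells it made up 42.3%, 41.4% and 37.3% in the control, Mll3-labelled and Mll4-labelled libraries. Granulocyte-monocyte-like cells had a low classical sum of 43.2, 48.9 and 60.4 CPM, of which H2-Ab1 made up 86.0%, 67.9% and 40.1%. Lymphoid-primed-like cells, led by Flt3, lay between, at 62.2%, 51.9% and 49.5%.

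Mll3/4-labelled over Mll3-labelled B-lineage-like cells, which lay in different clusters (18, 19 and 20 against 3), differed by a log2 ratio of -1.34 for H2-Aa, -1.28 for Cd74, -0.19 for H2-Ab1, -0.13 for H2-Eb1, 0.00 for H2-DMa and -0.53 for H2-DMb1. Of the 5 members past the minimum, 2 were 2-fold lower, against 10.6% of 9263 genes, and 0 were 2-fold higher, against 15.7%. Median depth was 8790 UMIs in the first and 23702 in the second. Within the Mll3/4-labelled library, clusters 18, 19 and 20 had H2-Ab1 at 186, 106 and 155 CPM, H2-Aa at 1.22, 9.23 and 0.738 CPM and Cd74 at 2.35, 18.5 and 1.54 CPM. Cluster 19 was thus lowest in H2-Ab1 and highest in H2-Aa and Cd74, and its H2-Ab1 share was 85.5% against 98.7% in both others. Few cells carried these values: the 213 H2-Aa UMIs of the 4541 Mll3/4-labelled cells lay in 51 of them and the 426 Cd74 UMIs in 80, whereas H2-Ab1 was seen in 2705. The 16 cells with at least 1000 CPM of the classical chains held 76.1% of the H2-Aa and 69.5% of the Cd74 UMIs, but 3.37% of those of H2-Ab1, and 11 of the 16 were in cluster 19. After thinning, 1323 of 4508 Mll3/4-labelled B-lineage-like cells had an H2-Ab1 UMI, and 15 of these also had an H2-Aa UMI.

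**Figure D4:**
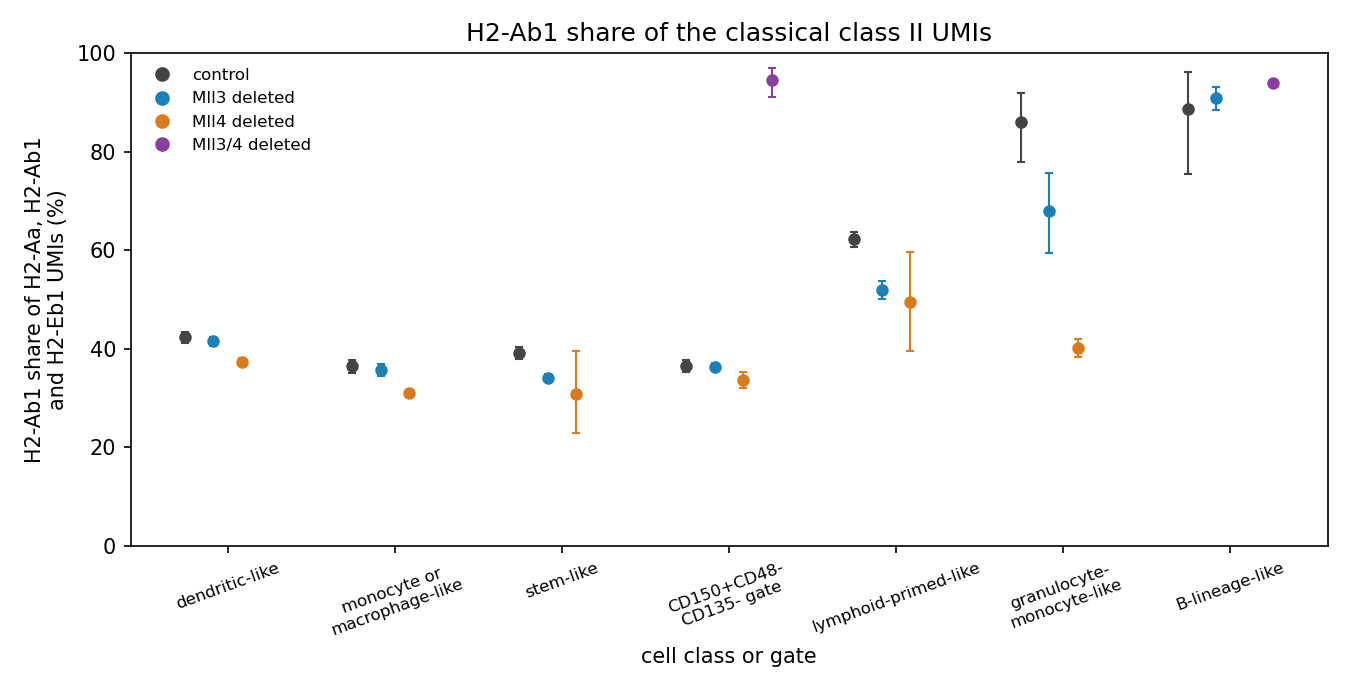
Share of H2-Ab1 among the H2-Aa, H2-Ab1 and H2-Eb1 UMIs in 6 cell classes and the CD150+CD48-CD135- gate, in percent, 1 point per library with its exact 95% binomial interval. The share is near 94% in the Mll3/4-labelled library and 88.6% and 90.9% in the few B-lineage-like cells of the control and Mll3-labelled libraries, and 37.3% to 42.3% in dendritic-like cells.

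Stem-like cells were compared between the control and Mll3-labelled libraries, with 2504 and 1943 cells; the other libraries had 10 and 3. All 12 stem markers were seen in both, and they summed to 2526 and 2752 CPM. H2-Aa was at 88.2 CPM (84.7 to 91.8) in the control and 197 (191 to 202) in the Mll3-labelled cells, H2-Ab1 at 95.8 and 173, H2-Eb1 at 61.4 and 140 and Cd74 at 129 and 331 CPM. Ciita was at 5.76 and 9.87, H2-DMa at 165 and 202 and H2-DMb1 at 41.4 and 65.1 CPM. All 7 were higher in the Mll3-labelled cells, with a median log2 ratio of 0.85, against 0.085 over all genes. H2-Aa, H2-Eb1 and Cd74 passed 2-fold, or 3 of 7, against 1.51% of 9938 genes; none was 2-fold lower, against 1.11%.

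Different clusters held most of the class in the 2 libraries. Cluster 2 had 2216 control and 432 Mll3-labelled cells, and cluster 5 had 288 and 1511. Of the 12 stem markers, only 3 were raised 2-fold over the other cells in cluster 2 (Procr, Hlf and Ifitm1), against 10 in cluster 5. The stem-like class of the control thus rests mostly on the cluster with fewer raised markers. Cluster 5 was led by Iigp1 and Gm4951 and also by Gbp6, genes induced by interferon gamma, beside the stem markers Procr and Mllt3. The classical sum was at 216 CPM in control and 251 in Mll3-labelled cells of cluster 2, and at 490.2 and 575 CPM in cluster 5. The log2 ratio of Mll3-labelled to control cells was 1.05 over the class but 0.22 within cluster 2 and 0.23 within cluster 5. Ciita was at 4.97 and 4.73 CPM in control and Mll3-labelled cells of cluster 2, and at 12.3 and 11.2 CPM in those of cluster 5.

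A list of 8 interferon-gamma-inducible genes was chosen after the leading genes of cluster 5 were seen, so its high level in that cluster is no finding. It summed to 309 and 347 CPM in cluster 2 and to 1090 and 998 CPM in cluster 5 in the control and Mll3-labelled cells. Within cluster 5 the list was thus lower in the Mll3-labelled cells while the classical sum was higher. Among thinned stem-like cells, 39.2% of control and 54.3% of Mll3-labelled cells had a classical UMI. The list stood at 472 CPM in control cells with a classical UMI and 360.5 CPM in those without, and at 1117 and 578 CPM in the Mll3-labelled library. The stem markers were at 2868 and 2451 CPM in control cells with and without a classical UMI, and at 3023 and 2615 CPM in the Mll3-labelled library. These splits pooled clusters 2 and 5. Cluster 5 had the higher classical sum, the higher list and more raised stem markers. A higher level of either list in cells with a classical UMI is therefore no separate finding. The part of either list in the class II levels was not tested.

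**Figure D5:**
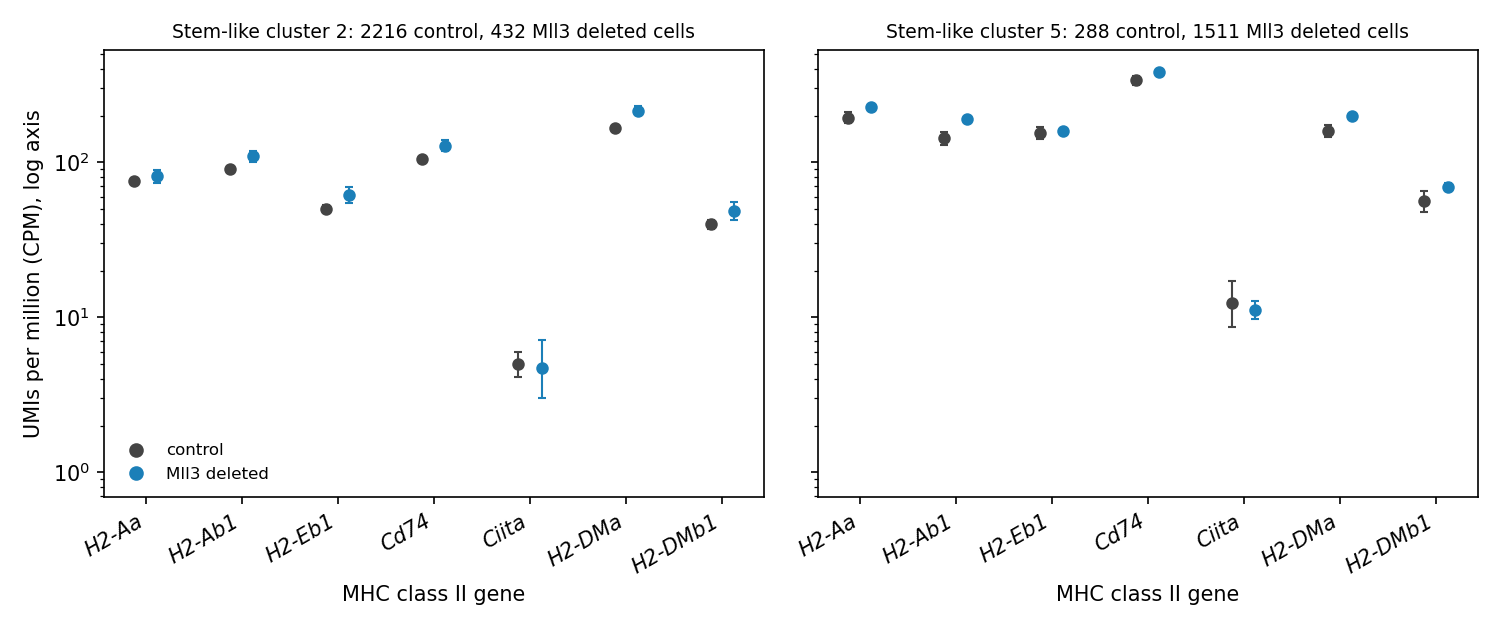
Level of each MHC class II gene in stem-like clusters 2 and 5, in CPM on a log axis, for control and Mll3-labelled cells with 95% Poisson intervals. Both libraries are higher in cluster 5 than in cluster 2 for H2-Aa, H2-Ab1, H2-Eb1, Cd74 and Ciita, and the 2 libraries lie close together within each cluster.

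The CD150+CD48-CD135- antibody gate, used for blood stem cells, allowed all 4 libraries to be set side by side, with 1635, 2547, 348 and 204 cells. The gate did not hold stem-like cells in the Mll3/4-labelled library: the 12 stem markers summed to 622 CPM there, against 2288, 2046 and 2175 CPM in the others, and Hoxb5 was at 0. In the Mll4-labelled library only 10 cells were stem-like by clustering, so most of its 348 gated cells were of other classes. The gate thus sets unlike cells side by side. In the gate H2-Aa was at 92.6, 125, 119 and 4.47 CPM, H2-Eb1 at 71.4, 95.4, 138 and 2.98 CPM, and H2-Ab1 at 94.0, 125, 129.9 and 128 CPM. Cd74 was at 129, 179.6, 173 and 3.48 CPM, H2-DMa at 131, 155, 94.7 and 47.7 CPM and H2-DMb1 at 43.7, 54.1, 46.9 and 9.44 CPM. Ciita was at 5.56, 5.96 and 4.68 CPM in the first 3 libraries and had no UMI in the last. Set at 3 UMIs over the gate, it was 3.73-fold lower there than in the control. The upper 95% limit of that log2 ratio, from the counts themselves, was -1.58.

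None of the 7 members differed 2-fold from the control in the gated Mll3-labelled cells, against 0.862% of genes higher and 1.20% lower, nor in the Mll4-labelled cells, against 3.06% higher and 2.76% lower. H2-Eb1 came nearest, at a log2 ratio of 0.95 in the Mll4-labelled cells. In the Mll3/4-labelled cells 5 of 6 members were 2-fold lower, against 12.6% of genes, and 0 were 2-fold higher, against 9.80%. The log2 ratio was -4.29 for H2-Aa (-5.50 to -3.44), -4.47 for H2-Eb1, -5.12 for Cd74, -1.45 for H2-DMa, -2.17 for H2-DMb1 and 0.44 for H2-Ab1 (0.25 to 0.63). H2-Ab1 made up 36.4%, 36.2%, 33.6% and 94.5% of the classical UMIs in the gate.

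Of a list of 32 other genes of the pathway found in the matrices, 8 take part in peptide loading and cleavage. In the Mll4-labelled library Ctss, the cathepsin that trims the invariant chain, was at 354 CPM against 19.2 in the control, Lgmn, an endosomal protease, at 36.9 against 2.39, and Ifi30, a lysosomal thiol reductase, at 44.8 against 14.9. These were the 3 of 6 genes of this kind past the minimum that were 2-fold higher, against 7.04% of all genes, and H2-Ob was 2-fold lower, against 4.47%. Their median log2 ratio was 0.996. In the Mll3-labelled library 1 of 5 past it, Ifi30 at 32.1 CPM, was 2-fold higher, against 1.33% of all genes, and the median was 0.48. In the Mll3/4-labelled library H2-Oa, which pairs with H2-Ob in H2-DO, was at 39.6 CPM against 17.4 and H2-Ob at 46.3 against 19.5. Thus 2 of 5 were 2-fold higher, against 8.94% of all genes. Ifi30, at 6.81 CPM, was 2-fold lower, against 11.9%, and the median was 0.35. March1, a ubiquitin ligase that sends class II molecules to degradation, was at 0.994, 1.35, 27.5 and 0.187 CPM.

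Among the 7 factors that sit on class II promoters (Rfx5, Rfxap, Rfxank, Nfya, Nfyb, Nfyc and Creb1), none differed 2-fold from the control in the Mll3-labelled and Mll4-labelled libraries. In the Mll3/4-labelled library 1 of 7 was 2-fold lower: Nfya, a subunit of the NF-Y complex, was at 27.0 CPM against 58.4. Counts of 0 or 1 among 7 are near the shares over all genes given above, and the medians were 0.14, -0.35 and 0.20. Rfx5, the largest RFX subunit, was at 18.2, 20.1, 13.2 and 14.3 CPM. Of the regulators of Ciita, Spi1, the myeloid and B-cell factor PU.1, was at 123, 122, 166 and 6.12 CPM, Irf8 at 23.7, 32.4, 105.8 and 5.39 CPM and Irf1, an interferon-induced factor, at 53.9, 66.2, 44.6 and 20.1 CPM. Pax5, the B-lineage factor, was at 0.672, 6.60, 0.769 and 283 CPM. In the Mll3/4-labelled library, 3 of 5 regulators past the minimum were 2-fold lower, against 11.9% of all genes, and 1, Pax5, was 2-fold higher, against 8.94%; their median log2 ratio was -1.42. Of 7 MHC class I genes (H2-K1, H2-D1, B2m, Tap1, Tap2, Tapbp and Nlrc5), 0 differed 2-fold in any library, which is near the shares over all genes. Their median log2 ratio was 0.19, 0.14 and 0.17, and the ratio farthest from 0 was 0.87, of Tapbp in the Mll4-labelled library.

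Likeness to the classical sum was measured as Pearson's r of log2(CPM + 10) over 29 groups, each a library's cells in 1 cluster of at least 50, among 9659 genes. Cd74 ranked 4 with r = 0.91, after the 3 summed genes themselves. The 5 most like genes outside the members were Tmem106a (0.89), Sdc3 (0.87), Igf1 (0.87), Tnfrsf11a (0.87) and Nfkb2 (0.87). Ciita had r = 0.85, H2-DMb1 0.59 and H2-DMa 0.24. Groups of 1 library share its preparation and depth, and a few groups with very high levels, such as cluster 15 of the Mll4-labelled library, weigh on every r.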

How the data were processed

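The deposited files were raw UMI counts per gene and cell barcode with counts of 6 antibodies. Per the submitters' processing notes, Cell Ranger 6.1.1 and the mm10 build were used; the counting options were not given in the sources used here. Kept barcodes had 1000 genes or more and no more than 10% mitochondrial UMIs, and the highest Scrublet scores were removed as doublets at 0.8% per 1000 cells (423, 298, 184 and 180 cells), because Scrublet's own threshold called 3, 3, 171 and 1. The 4 libraries were clustered together (scanpy 1.11.5; 2000 variable genes without the class II and pathway genes, 30 components, 15 neighbours, Leiden resolution 0.6, no batch correction). A cluster was named from at least 3 listed markers raised 2-fold at 20 CPM or more. Where several types met this, the type with most markers among the 10 leading genes was taken, then the one with most raised markers. A cell class rebuilt in this way may differ from the study's. Antibody gates used centred log ratios and the crossing of a 2-component Gaussian mixture. UMIs were summed per library and class and scaled to CPM, log2 ratios used 0.5 added UMIs, and genes averaging 5 CPM or more were counted past 2-fold. Interval methods were exact Poisson, exact binomial (Clopper-Pearson) and exact conditional for ratios. Genes named in the text were the 7 members, the pathway list, markers of the classes, Kmt2c, Kmt2d and the 5 most like genes. On counts simulated for all kept cells of each deleted library against the control, the 200 genes changed 4-fold were all recovered. None of 9574 unchanged genes passed 2-fold. A 4-fold change lies well past the 2-fold line, so this checks the calculation only. Variation between replicate libraries could not be covered with 1 library per genotype. Gene IDs of 32158 of 32285 genes were found in GENCODE M21. The members, lists and comparisons were chosen with earlier results of these data known. Alternatives were other filters, scalings, cluster settings, depths and minimums.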

Additional observations from a re-analysis of the deposited data

How the results depend on the processing

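No paired analysis was possible because there was 1 library per genotype. Of 406 values of single members under alternatives, 229 moved by less than their counting interval, 175 moved by more and 2 that had been past 2-fold changed sign: without the mature-like clusters, the Mll4-labelled log2 ratio was -0.031 for H2-Ab1 and -0.18 for Ciita. Another 14 changes of sign were in ratios under 2-fold. Scaling did not change a direction of the classical sum. For the Mll3-labelled library its log2 ratio of 0.81 was 0.72 with TMM factors, 0.71 with median-of-ratios factors, 0.72 with totals without mitochondrial and ribosomal genes, 0.92 with equal weight per cell, 0.83 without doublet removal and 0.92 without the mature-like clusters. For the Mll4-labelled library 2.88 was 2.92, 2.93, 2.83 and 3.24 under the first 4, 2.79 with a stricter filter (2000 genes or more, no more than 5% mitochondrial UMIs), and 0.38 without the mature-like clusters. For the Mll3/4-labelled library -0.82 was -0.74, -0.71, -0.88 and -1.22 under the first 4, -0.91 with the stricter filter and 0.034 without the mature-like clusters; H2-Ab1 was then at 0.88, and at -0.09 with equal weight per cell.

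In stem-like cells 1.05 was 1.27 with the stricter filter, 0.74 without doublet removal, 0.97 with TMM factors, 0.96 with median-of-ratios factors, 0.98 with totals without mitochondrial and ribosomal genes, 0.62 and 0.94 at Leiden resolutions 0.3 and 1, 0.64 with the class II genes kept in the clustering, 0.42 in the antibody gate, 0.22 in cluster 2 and 0.23 in cluster 5. At resolution 0.3 the class was not the same: it held 4491 control and 2248 Mll3-labelled cells, with 3 stem markers raised. Another cluster there had more raised stem markers but was named megakaryocyte-like by its leading genes. Under a looser filter (500 genes, 15% mitochondrial UMIs) no cluster was named stem-like, so no value could be given. A cluster with more stem than megakaryocyte markers raised was again named megakaryocyte-like by its leading genes. In dendritic-like cells, under alternatives chosen after seeing the data, the Mll3-labelled ratio of 0.55 was 0.50 with the looser filter, 0.49 with the stricter filter and 0.26 without doublet removal; the Mll4-labelled ratio of -0.15 was 0.081 and 0.037 with these filters, 0.054 at Leiden resolution 1 and 0.055 with the class II genes kept in the clustering. In B-lineage-like cells the Mll3/4-labelled over Mll3-labelled ratio of -0.24 was -0.086 with the stricter filter and -0.39 with equal weight per cell.

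The share of cells with a classical UMI at 1500 UMIs was 18.3%, 28.1%, 37.7% and 17.7%; with 2 UMIs required it was 11%, 20.9%, 29.2% and 7.74%, and without thinning 68.7%, 76.6%, 87.7% and 60.3%. Genes past 2-fold numbered 203, 1145 and 2068 in the Mll3-, Mll4- and Mll3/4-labelled libraries, 59, 541 and 969 with a minimum of 20 CPM, and 4630, 7434 and 8797 with at least 1 UMI in either library. The cause was not tested. Depth limits Ciita most, with 6 UMIs in the whole Mll3/4-labelled library, and the 15 control B-lineage-like cells.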
